A study of Mus musculus with 2 samples.

Results

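The genes described here are 44 cell cycle genes, 22 of S phase and 22 of G2 and M phase (G2/M), chosen by symbol from a fixed list and not by their values, out of 31058 features in the count tables. All 44 were found in both tables and all had at least 1 UMI (unique molecular identifier, which counts an mRNA molecule). Cells of whole kidneys were profiled by 10x Chromium 3′ single-cell RNA-seq after rhabdomyolysis, the breakdown of skeletal muscle whose released myoglobin injures the kidney tubule. One library came from mice given vehicle and the other from mice given CA3, a compound that inhibits YAP1, a coactivator of TEAD-dependent transcription. All mice were female C57Bl/6, 9 weeks old, with the genotype Pax8.rtTA;TetO.Cre;R26.FUCCI2aR, and all had rhabdomyolysis. Pax8 drives the doxycycline-controlled activator in the epithelium of the nephron, so that Cre can be induced there and switch on the FUCCI2aR cell cycle reporter. The labels do not say whether Cre was induced. The sources used here do not give how long after injury the kidneys were taken, how much CA3 was given or how many animals each library pooled. No uninjured group is among the samples. With 1 library per group no difference has a replicate check, no p-value is given, and treatment, animals and library preparation cannot be told apart. Each interval is a 95% interval of counting error alone.

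A cell that divides copies its DNA in S phase and then separates the copies in mitosis. In S phase the Mcm2 to Mcm7 helicase unwinds DNA, the clamp Pcna and its loader subunit Rfc2 hold the polymerases in place, and Rrm1, Rrm2 and Tyms supply nucleotides. From G2 on, cyclins of the A and B types activate the kinase Cdk1, while Top2a untangles chromosomes, Cenpe and Cenpf act at kinetochores and Cdc20 starts the destruction of the cyclins. Adult kidney tubule cells divide rarely, and surviving tubule cells can enter the cycle after acute injury, where some stop before mitosis or copy their DNA without dividing. Many S genes also serve DNA repair, and several are present at low levels in resting cells, so that their RNA alone does not place a cell in the cycle.

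Promoters of these genes are known for shared elements: E2F sites in S phase genes, and the cell cycle homology region (CHR) with CCAAT boxes in G2/M genes. RefSeq promoters (GRCm38.p6) were matched for 37 of the 44 genes, 18 of S and 19 of G2/M. The 6 sequences here, each the 150 bases before the start of the gene, are examples and do not stand for their lists. The G2/M genes Cdk1, Cdc20, Mki67 and Top2a were each present in at least 6 of the 9 cells described next. All 4 were in 3 of the cells, and at least 3 in 8. The helicase genes Mcm5 and Mcm6 were found in 70 and 233 cells. Cenpe, Cenpf, Birc5 and Ccnb1 were in 9, 8, 8 and 7 of the 9 cells, but had no CHR match in the 250 bases before the start. Slbp, Tyms and Pcna, found in more cells than Mcm5 and Mcm6, had no E2F match there. Capitals mark every match, on either strand, to TTTCGCGC, TTTGGCGC, TTTCCCGC or TTTGCCGC (E2F), to TTTGAA or TTCGAA (CHR) and to CCAAT. Matches of different elements may overlap, and adjoining or overlapping matches run together.
Cdk1 (chr10:69352913-69353062, minus strand): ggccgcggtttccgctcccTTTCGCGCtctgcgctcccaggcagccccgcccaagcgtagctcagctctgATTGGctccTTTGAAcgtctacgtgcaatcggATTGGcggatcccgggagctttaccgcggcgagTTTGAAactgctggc
Cdc20 (chr4:118437344-118437493, minus strand): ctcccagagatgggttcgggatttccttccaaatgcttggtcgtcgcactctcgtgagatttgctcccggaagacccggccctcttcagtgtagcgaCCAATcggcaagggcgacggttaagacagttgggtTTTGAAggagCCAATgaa
Mki67 (chr7:135716380-135716529, minus strand): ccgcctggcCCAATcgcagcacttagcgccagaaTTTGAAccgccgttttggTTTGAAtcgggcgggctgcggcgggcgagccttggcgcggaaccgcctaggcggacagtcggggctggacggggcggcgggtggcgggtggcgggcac
Top2a (chr11:99024190-99024339, minus strand): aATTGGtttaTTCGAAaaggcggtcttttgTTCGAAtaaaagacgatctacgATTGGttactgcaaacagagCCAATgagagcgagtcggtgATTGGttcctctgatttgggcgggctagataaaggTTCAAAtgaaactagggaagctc
Mcm5 (chr8:75109359-75109508, plus strand): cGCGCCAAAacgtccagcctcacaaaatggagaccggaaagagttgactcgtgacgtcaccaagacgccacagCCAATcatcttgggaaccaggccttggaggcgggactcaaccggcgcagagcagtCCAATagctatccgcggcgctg
Mcm6 (chr1:128359706-128359855, minus strand): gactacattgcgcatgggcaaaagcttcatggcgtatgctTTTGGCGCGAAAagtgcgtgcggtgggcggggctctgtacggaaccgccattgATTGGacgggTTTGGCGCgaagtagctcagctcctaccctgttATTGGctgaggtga
These 4 G2/M promoters hold CHR and CCAAT matches and the 2 helicase promoters hold E2F and CCAAT matches. Over the 250 bases before the start, a CHR match together with a CCAAT match was present in 47.4% of the 19 G2/M promoters, in 16.7% of the 18 S promoters and in 6.21% of all 27025 promoters. An E2F match was present in 5.26%, 27.8% and 1.91%, and a CCAAT match alone or with others in 78.9%, 66.7% and 34.5%. The 1 G2/M promoter with an E2F match was that of Cdk1. A match describes the letters of the window and not the binding of a factor, and a window without one says nothing about the factor.

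After removal of barcodes with under 500 genes or over 50% mitochondrial UMIs, 1767 vehicle and 1494 CA3 cells remained, with 14467412 and 12290247 UMIs of genes outside the mitochondrial genome and a median of 5974 and 5930.5 per cell. Cells were clustered without the 44 genes and named from marker genes: tubule-like cells (1599 vehicle, 1288 CA3; mostly proximal tubule, with thick ascending limb, distal nephron and intercalated cells), endothelial-like cells (59 and 45), lymphocyte-like cells (58 and 113; T or NK, resting T and B) and phagocyte-like cells (36 and 42). Podocyte-like cells (15 and 6) were in none of these groups. A doublet caller (Scrublet) marked 1 vehicle and 3 CA3 cells. How well it finds doublets here was not tested, so few calls do not show that doublets are few, and doublets may remain. The libraries shared 1 cell barcode.

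G2/M genes were concentrated in 9 of the 3261 cells. The 9 cells held between 11 and 19 different G2/M genes each, and the next highest cell held 7. The cut at 10 genes was set after this gap was seen, and the vehicle library had 6 such cells and the CA3 library 3. By the cluster they were in, 4 of these cells were proximal tubule-like (3 vehicle, 1 CA3), 2 were T or NK-like (1 and 1), 2 phagocyte-like (1 and 1) and 1 B-like (vehicle). No endothelial-like cell passed, where 0 of 59 and 0 of 45 cells allow a share of up to 5.08% and 6.67%. Among tubule-like cells the share was 0.188% in the vehicle library (exact Clopper-Pearson interval 0.0387 to 0.547%) and 0.0776% in the CA3 library (0.00197 to 0.432%), so the intervals overlap. Without the cell filter a further tubule-like CA3 barcode with 15 G2/M genes, 12 S genes and a mitochondrial share of 59.9% joined them, which makes 3 vehicle and 2 CA3 tubule-like cells.

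**Figure D1:**
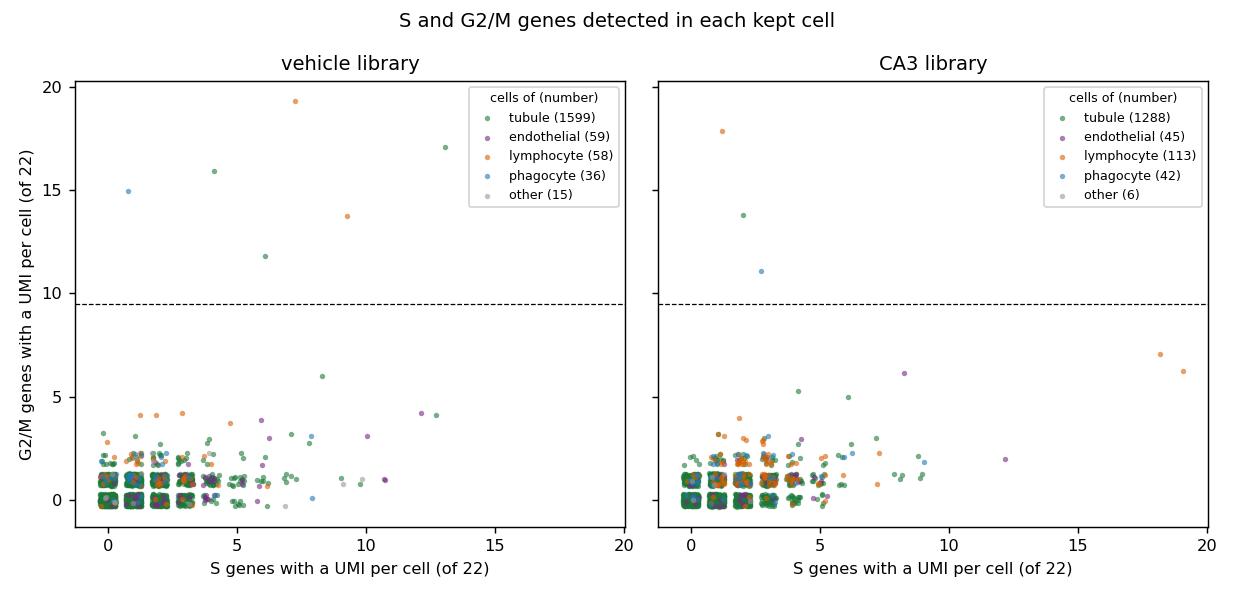
Number of different S genes (x axis) and G2/M genes (y axis) with at least 1 UMI in each kept cell, unthinned, with the vehicle library on the left and the CA3 library on the right; colours are cell groups, points are spread slightly to show overlap, and the dashed line is the cut at 10 G2/M genes. The 9 cells above the line hold 11 to 19 G2/M genes, and most other cells hold 0 to 2.

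The proximal tubule-like members of this set carried broad mitotic programs at low UMI counts. The vehicle cell with most G2/M genes among them had 17 of the 22 in 11732 UMIs, with 11 UMIs of Mki67 (a protein of the surface of mitotic chromosomes and the standard marker of cycling), 5 of Tpx2 (a spindle assembly factor), 4 of Top2a and 3 each of Cdk1, Aurka, Aurkb and Cdc20. It also had 13 of the 22 S genes, each at 1 to 4 UMIs. A vehicle cell of 15814 UMIs had 19 UMIs of Mki67, 18 of Cenpf, 6 of Ccnb2 (cyclin B2) and 0 of Top2a. The third vehicle cell, of 5982 UMIs, had 8 of Top2a, 3 of Ccna2 (cyclin A2) and 1 of Mki67. The CA3 cell had 16066 UMIs, 14 G2/M genes with 7 UMIs of Top2a and 5 of Mki67, and 2 S genes. These cells differ in which G2/M genes lead. Outside the set, proximal tubule-like cells had at most 5 G2/M genes. The median depth of proximal tubule-like cells was 5727 UMIs in the vehicle and 5923 in the CA3 library, so 3 of the 4 cells were over 2 times as deep as their class. The part of depth in the count of genes was not tested.

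The immune members ranged more widely in their G2/M UMIs, from 39 to 152 per cell, against 35 to 62 in the proximal tubule-like members. The vehicle T or NK-like cell had 19 G2/M genes with 108 UMIs, among them 10 of Mki67, 10 of Top2a and 42 of Hmgb2 (a chromatin protein), and 7 S genes. The CA3 T or NK-like cell had 18 G2/M genes with 113 UMIs, led by 29 of Hmgb2, 11 of Cenpf and 9 of Cdc20, and of the S genes only Slbp. The B-like cell, with 1548 UMIs of Igkc, 645 of Igha and 207 of Jchain, had 14 G2/M genes with 152 UMIs, 89 of them of Hmgb2. By its own markers it was plasma-like, with 315 UMIs of the 2 plasma cell markers and 21 of the B markers. A list of under 3 markers could not name a cluster, so this cell is counted as B-like throughout. It had 23120 UMIs against a class median of 4008, and 43 UMIs of proximal tubule markers. The vehicle phagocyte-like cell had 2 UMIs of the phagocyte markers but 97 of H2-Ab1, a gene of antigen presentation. It also had 107 of Cst3, 102 of Cd74 and 3 of Xcr1, and 0 of C1qa, C1qb and Csf1r. Its name thus comes from its cluster and has little backing in its own phagocyte markers. The CA3 phagocyte-like cell had 11 G2/M genes with 39 UMIs in 5873, led by 10 of Hmgb2, 7 of Top2a and 5 each of Cenpf and Kif11, and 3 S genes.

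**Figure D2:**
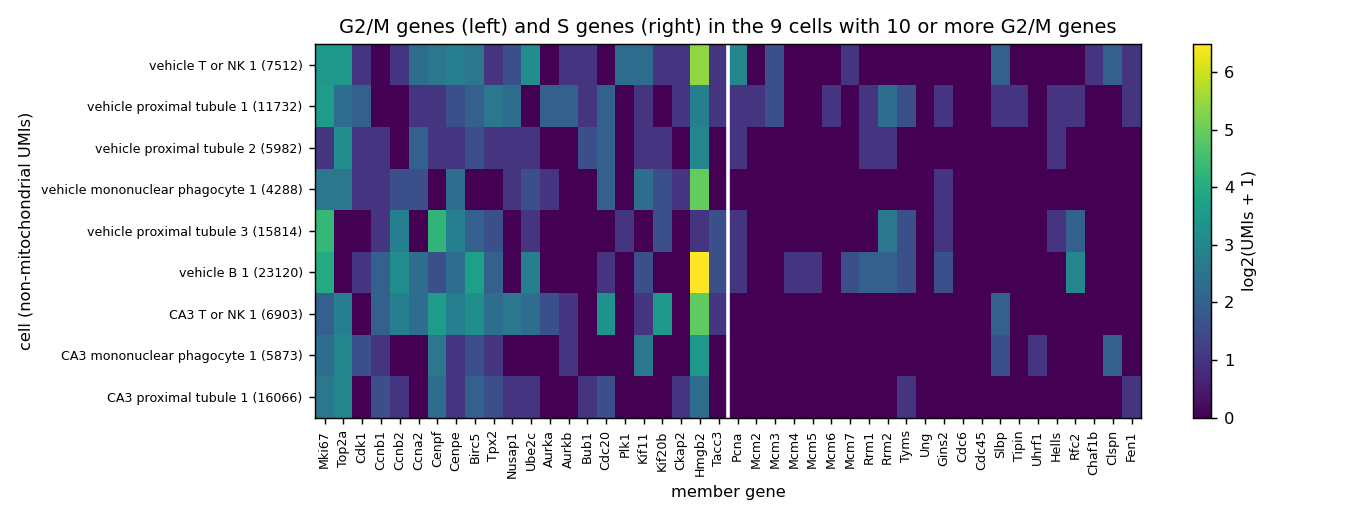
Colour gives log2(UMIs + 1) of the 44 genes (columns, G2/M genes left of the white line and S genes right of it) in the 9 cells with 10 or more G2/M genes (rows, with their non-mitochondrial UMIs). Mki67, Cenpe and Hmgb2 are present in all 9 rows, and most S genes are dark in most rows.

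Genes outside the 44 were also read in these cells. The cells had been picked by G2/M genes, so the list of other mitosis genes describes them and is not a separate test. A list of 36 other mitosis genes stood at 5057 counts per 1000000 non-mitochondrial UMIs (CPM) in the 9 cells and at 354 CPM in all other cells, a ratio of 14.3 (exact conditional binomial interval 13.0 to 15.6). Each of the 9 cells had 12 to 24 of the 36 genes, against a median of 2 and a highest count of 14 in the other cells, so the ranges overlap. These counts of genes were not set to equal depth. In the proximal tubule-like cells alone the ratio was 11.2 (9.69 to 12.8). A list of 32 other replication genes was 7.86 times as high (6.90 to 8.92) in the 9 cells and 2.68 times (1.93 to 3.63) within the proximal tubule-like class. One vehicle T or NK-like cell held 140 of the 249 UMIs behind the first ratio, 65 of them of Hist1h1b and 40 of Hist1h2ap. Ratios over all 9 cells also set a mix of tubule-like and immune cells against mostly tubule-like cells. Genes of G1 and arrest differed little, at 1.20 times (0.989 to 1.45). Of 15 tubule injury genes, Spp1 (osteopontin) had 77 of the 90 UMIs in the 4 proximal tubule-like cells, at 1553 CPM against 3555 CPM in the other cells of that class. Krt8, a keratin, had 222 CPM in 3 of the 4 cells against 86.1 CPM, so that the injury genes did not move one way.

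The G2/M genes themselves differed in how far they were confined to such cells. To avoid choosing a cell by the gene measured, each gene was read in cells with 10 or more of the other G2/M genes, which hold 0.364% of all non-mitochondrial UMIs. Bub1, a spindle checkpoint kinase, had all 5 of its UMIs there. Ccnb2 had 24 of 29 (82.8%), Tpx2 70.4%, Birc5 (survivin, of the chromosomal passenger complex) 38 of 56 (67.9%), Ccna2 66.7% and Cenpf 47 of 75 (62.7%). Mki67 had 73 of 134 (54.5%) and was present in all 9 cells, and Top2a had 47 of 101 (46.5%). The median over the 22 G2/M genes was 50.5%.

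At the other end stood Hmgb2, Kif20b and Tacc3, which were common outside the 9 cells. Hmgb2 had 3075 UMIs in 1321 cells, and 7.09% of them lay in the 9 cells. Kif20b, a kinesin of late mitosis, had 14.2% and Tacc3, a spindle protein, 15.6%. Cdk1 had 9 of 36 UMIs (25%) there, and Mki67 was found in 36 other cells with 61 UMIs. So a UMI of Hmgb2, and in most cells of Mki67 too, was found without a broad G2/M program.

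**Figure D3:**
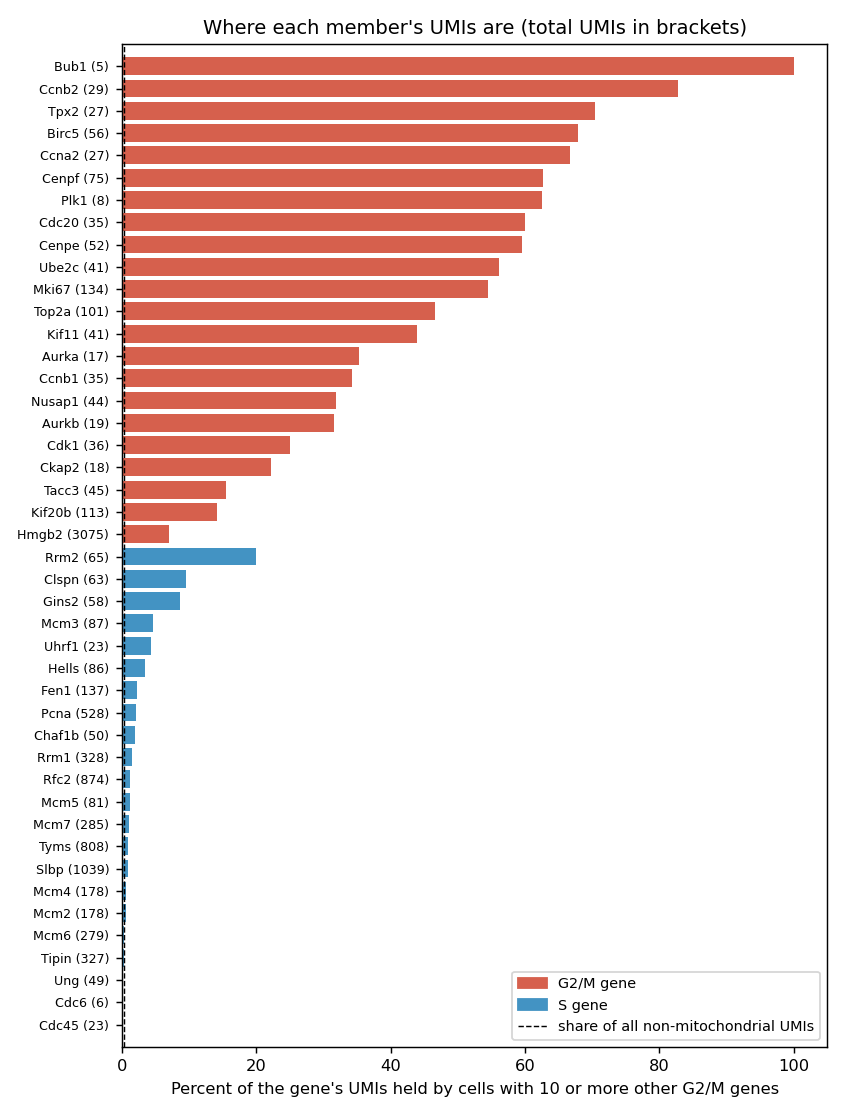
Bars give the percent of the UMIs of each gene that lie in cells with 10 or more other G2/M genes (G2/M genes red, S genes blue; total UMIs of the gene in brackets), and the dashed line is the share of all UMIs in those cells. Bub1 reaches 100%, Hmgb2 7.09%, and among S genes Rrm2 has the longest bar.

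S genes were spread over many more cells. The median S gene had 112 UMIs in 98.5 cells, against 38.5 UMIs in 20 cells for the median G2/M gene. Slbp, which binds the stem-loop of histone mRNA, had 1039 UMIs in 744 cells, Rfc2 had 874 in 701 cells, Tyms had 808 in 665 cells and Pcna 528 in 435 cells. Of the UMIs of Slbp and Tyms, 0.866% each lay in the 9 cells, and of those of Mcm6 0.358%. The S genes with the largest part there were Rrm2, the inducible subunit of ribonucleotide reductase (13 of 65 UMIs), Clspn, which links the fork to the checkpoint (9.52%), and Gins2, of the replicative helicase (8.62%). Cdc6 and Cdc45, which license and start origins, had 6 and 23 UMIs in all and 0 in the 9 cells.

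Cells were then called at equal depth. Each cell was thinned to 2000 non-mitochondrial UMIs, which left out 3 CA3 cells, and called S only, G2/M only or both from 3 or more different genes of a list. One thinning keeps few UMIs of such genes, so that the calls moved between draws. In the draw fixed for the main calls, S only cells were 13 of 1599 tubule-like vehicle cells (0.813%, 0.434 to 1.39%) and 2 of 1285 CA3 cells (0.156%, 0.0189 to 0.561%). Over 50 draws, a setting added after this was seen, the mean was 6.9 cells (1 to 13) in the vehicle library and 5.24 (1 to 10) in the CA3 library, or 0.432% and 0.408%. The CA3 share was the higher one in 23 of the 50 draws, so the difference in the main draw did not hold over the draws. Unthinned, 194 vehicle (12.1%) and 202 CA3 tubule-like cells (15.7%) had 3 or more S genes and fewer than 3 G2/M genes.

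Cells with both lists were rare in each tubule comparison. At equal depth 1 of 1599 vehicle cells (0.0625%) and 0 of 1285 CA3 cells had both, and 0 cells of 1285 leaves room for up to 0.233%. The mean over 50 draws was 0.9 and 0.92 cells. Cells with G2/M genes alone numbered 2 vehicle and 1 CA3 in the main draw and 2.02 and 0.84 on average. Unthinned, 9 vehicle cells (0.563%) and 6 CA3 cells (0.466%) had both. Cells called S only could hold 1 or 2 G2/M genes: 71 of the 194 vehicle and 69 of the 202 CA3 unthinned S only cells held none. The S list is the more abundant of the lists, so the number of S only cells is not compared with that of G2/M cells.

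Replication genes outside the 44 were then read in the called cells. The 15 tubule-like S only cells, read at the same depth, had 1.6 UMIs per cell of the 32 other replication genes against 0.618 in tubule-like cells with no call (ratio 2.59, 1.65 to 3.87). One cell accounted for 17 of the 24 UMIs: without it the other 14 cells had 0.5 UMIs per cell, 0.809 times (0.325 to 1.67) the level of cells with no call. Of the 15 cells, 9 had 0 UMIs of the replication list, and 1 had 3 or more of its genes. Tubule-like cells with exactly 2 S genes stood at 0.994 times (0.737 to 1.31) the level of cells with no call. The 1 tubule-like cell with both lists had 2 UMIs (3.24, 0.392 to 11.7). The 3 tubule-like G2/M only cells stood at 2.70 times (0.875 to 6.31). Without the S only cell of 17 UMIs, replication genes thus did not set the S only tubule-like cells apart from uncalled ones. That reading rests on 7 UMIs, and the highest cell was left out on the called side only. The other 2 cells with both lists were lymphocyte-like and had 41 and 11 UMIs, against 1.46 per cell in lymphocyte-like cells with no call; for the lower of them alone the ratio was 7.55 (3.70 to 13.8). The S genes seen most often in the 15 cells were Pcna (7 cells), Rfc2 (6) and Tyms (5), genes that were also among the most widespread in all cells.

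The cell that stood out was a CA3 proximal tubule-like cell of 3344 UMIs. It had 6 S genes with 10 UMIs, led by 4 of Hells (a chromatin remodeller of S phase) and 2 of Uhrf1 (which maintains DNA methylation at the fork), 5 G2/M genes with 11 UMIs, and 14 of the 32 other replication genes. A vehicle proximal tubule-like cell of 18177 UMIs had 13 S genes with 29 UMIs, all of Mcm2 to Mcm7 among them, 4 G2/M genes with 6 UMIs and 11 replication genes. In both, replication genes inside and outside the list were found together. Mitotic genes were present too: the CA3 cell had 32.9 UMIs of G2/M genes per 10000 against 29.9 of S genes, and the vehicle cell had 8 of the 36 other mitosis genes with 15 UMIs. Another vehicle proximal tubule-like cell, with 6 S genes in 4124 UMIs and 4 of them after thinning, had 0 of the other replication genes.

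Lymphocyte-like cells held S only calls more often. In the main draw 2 of 58 vehicle cells (3.45%, 0.420 to 11.9%) and 7 of 113 CA3 cells (6.19%, 2.53 to 12.3%) were S only, and 1 in each library had both lists. Over 50 draws the mean was 1.32 and 7.44 cells, or 2.28% and 6.58%, and the CA3 share was higher in 47 of the 50, which are draws from the same cells and not replicates. The intervals of the shares overlap, so that the number of cells does not separate the libraries. The 9 S only cells had 2.67 UMIs per cell of the other replication genes, against 1.46 in lymphocyte-like cells with no call (ratio 1.83, 1.14 to 2.81). Of their 24 UMIs 10 were in 1 cell, and the other 8 cells had 1.75 per cell (1.20, 0.644 to 2.07). Median depth was 4728.5 UMIs in vehicle and 5160 in CA3 lymphocyte-like cells before thinning.

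The 2 kept cells with most S genes were CA3 T or NK-like cells of cluster 10. One had 18 of the 22 S genes with 72 UMIs in 9641, led by 10 of Slbp, 8 of Pcna, 7 of Mcm6 and 7 of Clspn, and 19 of the 32 other replication genes. It also had 7 G2/M genes, 47 of whose 70 UMIs were of Hmgb2. The other had 19 S genes with 50 UMIs in 17880, with 6 each of Mcm2, Mcm3 and Mcm7, and 24 replication genes. Of G2/M genes it had Hmgb2 at 20 UMIs and 5 others at 1 UMI each. No vehicle lymphocyte-like cell had 10 or more S genes.

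Endothelial-like and phagocyte-like cells gave few calls. Over 50 draws, 1.54 of 59 vehicle and 0.8 of 45 CA3 endothelial-like cells were S only, and in the main draw none had both lists, where counts of 0 allow 5.08% and 6.67%. No phagocyte-like cell was S only or had both in the main draw, which allows 8.33% of 36 and 7.14% of 42 cells. The G2/M only call took 1 phagocyte-like cell in each library, 2.78% and 2.38%. A CA3 endothelial-like cell of 6775 UMIs had 6 G2/M genes, with 4 UMIs of Mki67, and 8 S genes at 1 or 2 UMIs.

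Summed over cells, the S list was highest in lymphocyte-like cells and lowest in the tubule. It stood at 178 CPM in vehicle and 186 CPM in CA3 tubule-like cells, at 202 and 269 in phagocyte-like cells, at 313 and 342 in endothelial-like cells, and at 450 and 674 in lymphocyte-like cells. The intervals of phagocyte-like and tubule-like cells overlap in the vehicle library (155 to 258 and 171 to 186 CPM), and those of the phagocyte-like and endothelial-like groups overlap in the CA3 library (222 to 322 and 292 to 399 CPM). Resting T-like cells, marked by genes of naive T cells, had 367 and 374 CPM, which gives the level of the S list in lymphocytes that are not known to cycle. The G2/M list had 105 and 98.9 CPM in tubule-like and 1356 and 973 CPM in lymphocyte-like cells. Hmgb2 made up most of it: without Hmgb2 the levels were 22.8 and 17.5 CPM, and 470 and 253 CPM.

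**Figure D4:**
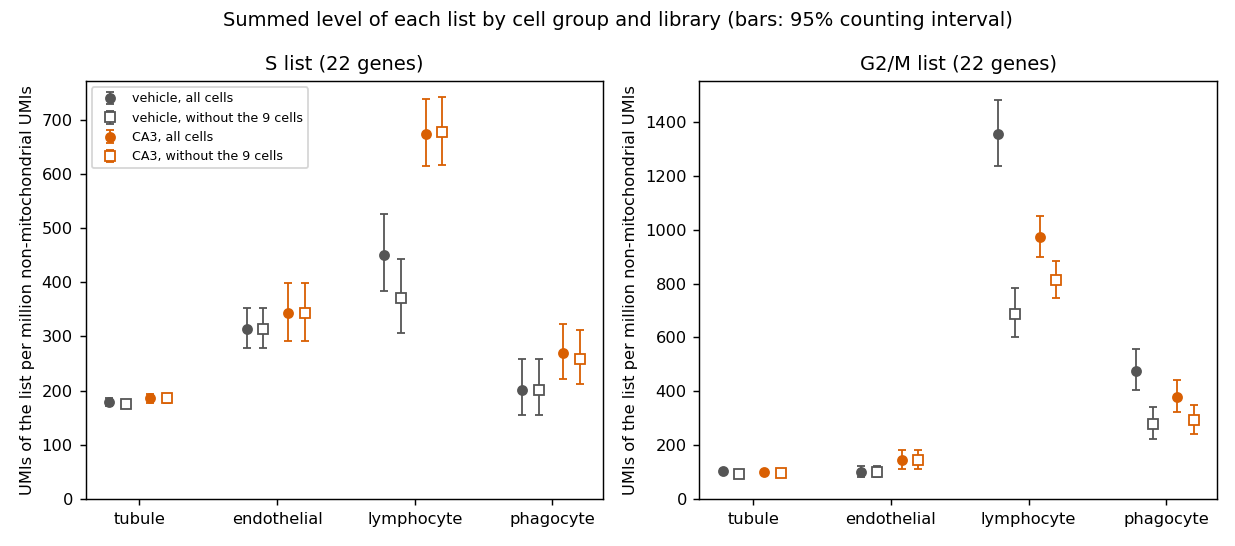
Points give the UMIs of the 22 S genes (left) and 22 G2/M genes (right) per 1000000 non-mitochondrial UMIs in each cell group, vehicle grey and CA3 orange; filled circles are all cells, open squares leave out the 9 cells with 10 or more G2/M genes, and bars are 95% counting intervals. The G2/M level of vehicle lymphocyte-like cells falls from 1356 to 688 CPM without its 2 cells, while the S levels of the tubule hardly move.

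In tubule-like cells the S list stood at 178 CPM in the vehicle and 186 CPM in the CA3 library, a ratio of 1.04 (exact conditional binomial interval 0.980 to 1.11). Members with 20 or more UMIs in a cell group were read one by one, and a ratio of 1.5 times or more in either direction was called higher or lower, as a rule of size. Of 19 S genes measured in the tubule, 1 was higher and 3 were lower, where 3.62% and 4.96% of all 12613 genes with 20 or more UMIs were higher and lower. The median log2 ratio of the 19 was -0.02 (all genes -0.01). Among helicase genes Mcm7 had 113 vehicle and 106 CA3 UMIs (ratio 1.12), Mcm6 had 114 and 94 (0.983), Mcm2 78 and 59 (0.902), Mcm4 47 and 49 (1.24), and Mcm5 24 and 20 (0.993). Mcm3, with 14 and 7 UMIs (0.596, 0.204 to 1.58), was lower by size with an interval that includes 1.

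Pcna had 183 UMIs in each library (1.19, 0.966 to 1.47), Slbp 421 and 348 (0.985), Tipin, of the fork protection complex, 142 and 113 (0.949) and Rfc2 376 and 360 (1.14). These widespread genes lay close to the vehicle level. Tyms, thymidylate synthase, had 364 and 381 UMIs and a ratio of 1.25 (1.08 to 1.44). The subunits of ribonucleotide reductase were on the low side, Rrm1 with 162 and 91 UMIs (0.670, 0.512 to 0.871) and Rrm2 with 40 and 15 (0.447, 0.229 to 0.827). Without the cells of 10 or more G2/M genes, Rrm2 had 30 and 15 UMIs (0.595), while Rrm1 was at 0.677. Hells had 37 and 19 UMIs (0.612, 0.333 to 1.09), Uhrf1 had 7 and 5, too few to measure, and Ung, a uracil glycosylase of base repair, had 14 and 21 (1.79, 0.867 to 3.80) and was the 1 S gene called higher.

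G2/M genes of the tubule rested on few cells. Of 11 measured, 2 were higher (Cdk1, Ccnb1) and 3 lower (Mki67, Cenpe, Nusap1). Of all 12613 genes measured in the tubule, 3.62% were higher and 4.96% lower. The share among genes with as few UMIs was not computed. Mki67 had 49 UMIs in 10 vehicle cells and 13 in 7 CA3 cells (0.316, 0.157 to 0.592). With the 4 tubule-like cells of the set left out it had 18 and 8 UMIs and a ratio of 0.529. Cenpe, the kinetochore motor, had 21 and 3 UMIs (0.170, 0.0325 to 0.570), and 12 and 2 without those cells. Top2a had 14 UMIs in 4 vehicle cells and 10 in 3 CA3 cells, and outside the set 2 and 3 UMIs. Cenpf had 31 and 21 UMIs (0.807) and outside the set 11 and 17, 12 of the latter in 1 distal nephron-like cell of 47869 UMIs.

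Cdk1 had 10 and 14 UMIs in the tubule (1.67, 0.689 to 4.2). Ccnb1, cyclin B1, had 5 and 21 UMIs (5.01, 1.84 to 17.0), and 15 of the 21 came from 1 CA3 intercalated-like cell that had 3 G2/M genes in 37496 UMIs. Ccnb2 (9 and 3 UMIs), Ccna2 (7 and 5) and 9 more G2/M genes were under the limit of 20 UMIs. Birc5 had 16 and 13 UMIs (0.969) and Hmgb2 1041 and 868 (0.994, 0.907 to 1.09), so the most abundant member had an interval close around 1. The whole G2/M list had a ratio of 0.945 (0.871 to 1.02) in the tubule and 1.03 (0.945 to 1.12) without the cells of the set. In the proximal tubule-like class, the G2/M list without Hmgb2, Ckap2, Tacc3 and Kif20b stood at 19.0 and 10.2 CPM (0.535, 0.414 to 0.687), and without its 4 cells the ratio was 1.02 (0.714 to 1.44).

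**Figure D5:**
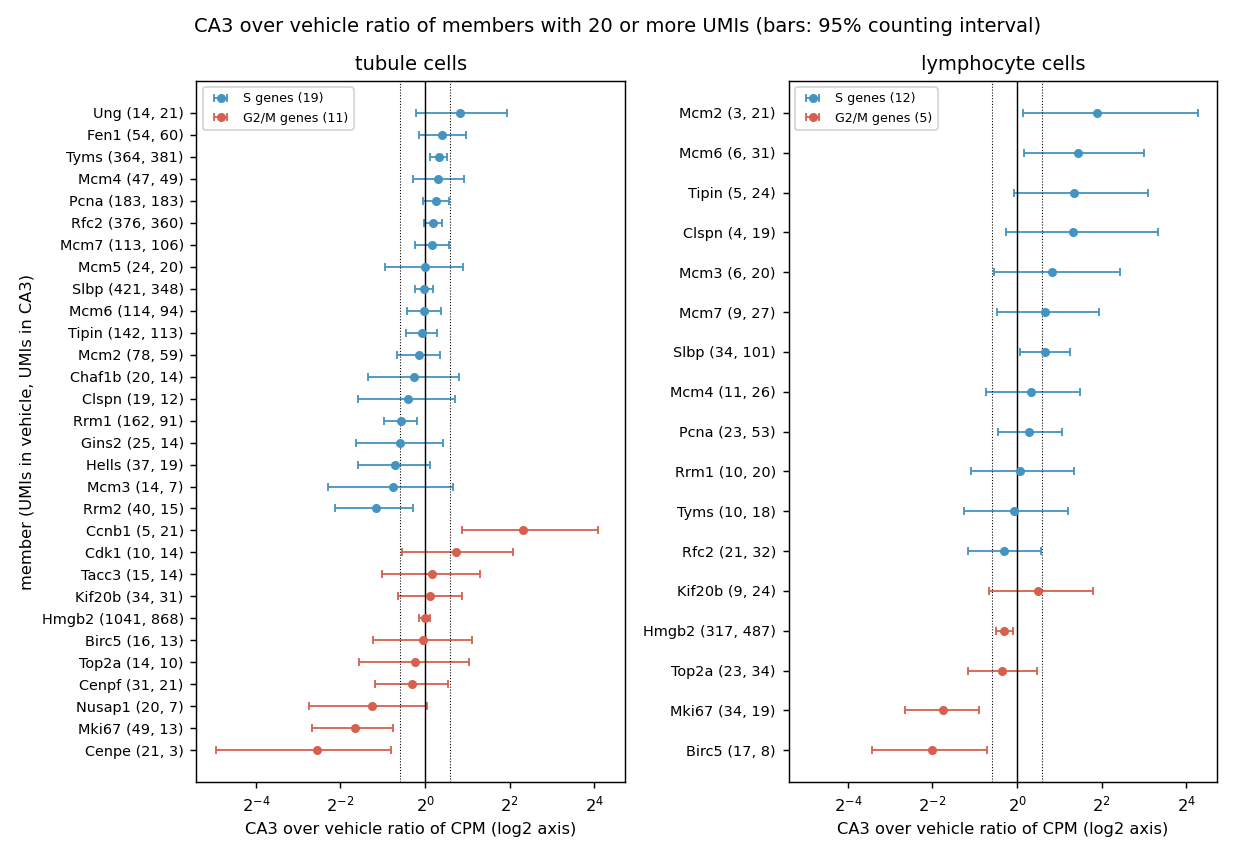
CA3 over vehicle ratio of the CPM of each gene with 20 or more UMIs (log2 axis; S genes blue, G2/M genes red; bars are 95% counting intervals; UMIs of both libraries in brackets), for tubule-like cells on the left and lymphocyte-like cells on the right. Solid lines mark a ratio of 1 and dotted lines 1.5 times in either direction: 4 of 19 S genes lie at or beyond them in the tubule and 7 of 12 in lymphocyte-like cells.

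In lymphocyte-like cells the S list was higher in the CA3 library, at 674 against 450 CPM (ratio 1.5, 1.25 to 1.80). Of 12 S genes measured, 7 were higher and 0 lower, where 18.0% and 10.3% of 6170 genes were higher and lower. The 7 were Mcm2, Mcm3, Mcm6, Mcm7, Slbp, Tipin and Clspn, and the median log2 ratio of the 12 was 0.66, against 0.10 for all genes. Mcm2 had 3 UMIs in the vehicle and 21 in the CA3 library (3.70, 1.11 to 19.4), Mcm6 had 6 and 31 (2.73, 1.12 to 8.01) and Slbp 34 and 101 (1.57, 1.06 to 2.39). Without cells of 10 or more S or G2/M genes, 2 of 9 measured S genes were higher, Mcm6 with 6 and 21 UMIs (1.78, 0.696 to 5.40) and Tipin with 5 and 17 (1.73, 0.613 to 6.01). Slbp was then at 1.43 (0.939 to 2.23), and Mcm2, with 3 and 12 UMIs (2.04, 0.550 to 11.3), was under the limit of 20. The count of higher S genes therefore rested in part on a few cells and in part on the limit of 20 UMIs, and no interval of the 2 genes excluded 1. The whole S list was then at 1.39 (1.13 to 1.73). The share of all genes called without those cells was not computed. With all cells, the intervals of the other 4 of the 7 genes include 1, and those of Pcna (23 and 53 UMIs, 1.22, 0.734 to 2.08) and Tyms (10 and 18, 0.952) do too. The groups differed in makeup: T or NK-like cells were 40 of 58 and 77 of 113, resting T-like cells 11 and 19, and B-like cells 7 and 17.

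In the T or NK-like class, the largest of the lymphocyte classes, the S list stood at 469 and 810 CPM (1.73, 1.38 to 2.18), against 1.02 (0.623 to 1.72) in resting T-like cells and 0.951 (0.570 to 1.57) in B-like cells. Without the 1 vehicle B-like cell of the set the B-like ratio was 1.66 (0.869 to 3.31), and the difference between classes was not tested. In cluster 10 the ratio was 1.58 (1.23 to 2.06) and in cluster 18 it was 1.90 (1.15 to 3.22). A few cells held much of it. Without cells of 10 or more S or G2/M genes the ratio of the T or NK-like class was 1.45 (1.13 to 1.89) and that of cluster 10 was 1.29 (0.955 to 1.76), while cluster 18 had no such cell. For Mcm2 to Mcm7 together the T or NK-like ratio went from 2.14 (1.38 to 3.44) to 1.42 (0.866 to 2.43).

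Summed over the whole group, G2/M genes of lymphocyte-like cells ran the other way until 3 cells were left out. Of 5 measured, 0 were higher and 2 lower, where 18.0% and 10.3% of 6170 genes were higher and lower. The 2 were Mki67 with 34 and 19 UMIs (0.296, 0.159 to 0.533) and Birc5 with 17 and 8 (0.249, 0.0930 to 0.608). Without the cells of the set Mki67 had 9 and 16 UMIs (0.869) and Birc5 0 and 0. Top2a had 23 and 34 UMIs (0.782, 0.447 to 1.39), and 13 and 28 without those cells (1.05). The list ratio was 0.718 (0.637 to 0.808) with all cells and 1.18 (1.01 to 1.39) without them, and 1.02 (0.866 to 1.20) without cells of 10 or more S or G2/M genes. The direction of the list over the whole group therefore depended on 2 vehicle cells and 1 CA3 cell. The clusters differed: without cells of 10 or more S or G2/M genes, cluster 10 stayed lower, at 0.794 (0.648 to 0.976). With the list without Hmgb2, Ckap2, Tacc3 and Kif20b it was at 0.491 (0.264 to 0.923). For the whole list cluster 18 was then at 1.12 (0.768 to 1.64), resting T-like cells at 1.38 (0.821 to 2.40) and B-like cells at 2.59 (1.19 to 6.21).

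In endothelial-like cells the S list ratio was 1.09 (0.896 to 1.33). This group holds tubule-marked cells: 16 of 59 vehicle and 9 of 45 CA3 cells had more UMIs of proximal tubule than of endothelial markers, and they carried 76 of 288 and 64 of 163 S UMIs. One of them, a CA3 cell of 104067 UMIs, had 33 S UMIs, 473 UMIs of proximal tubule markers and 0 of endothelial markers. Without these cells the S ratio was 1.09 (0.851 to 1.39). Of 10 S genes measured, 2 were higher (Mcm6, Slbp) and 1 lower (Rfc2), where 11.3% and 14.8% of all genes measured were higher and lower. Of the G2/M genes Hmgb2 alone was measured (75 and 49 UMIs, 1.26). The G2/M list ratio of 1.46 (1.05 to 2.02) was 2.41 (1.19 to 4.98) without Hmgb2, on 16 and 20 UMIs, and 3.62 (1.44 to 9.86) without Hmgb2, Ckap2, Tacc3 and Kif20b, on 8 and 15 UMIs. It was 1.09 (0.692 to 1.68) once the 3 cells per library richest in its UMIs were left out, and 1.51 (1.01 to 2.24) without the tubule-marked cells.

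In phagocyte-like cells the S list ratio was 1.33 (0.974 to 1.84), and of 3 S genes measured 0 were higher and 0 lower, where 13.9% and 12.3% of all genes measured were. Mcm2 to Mcm7 together had 9 and 32 UMIs (2.61, 1.22 to 6.23), all 6 genes being under the limit of 20 UMIs. The G2/M list was at 0.793 (0.632 to 0.997) and at 1.05 (0.790 to 1.39) without the 1 cell of the set in each library. Without the 4 vehicle and 2 CA3 cells that had more UMIs of proximal tubule than of phagocyte markers, among them the vehicle cell of the set but not the CA3 one, it was 1.37 (1.04 to 1.80). That vehicle cell had only 4 UMIs of proximal tubule and 2 of phagocyte markers. Over all kept cells 21 S genes were measured, with 1 higher and 2 lower, and 17 G2/M genes, with 4 higher and 5 lower, where 6.88% and 7.05% of all genes were higher and lower. Those sums mix cell groups whose shares differ between the libraries.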

How the data were processed

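The authors deposited UMI counts for each gene in each cell, not normalized, from Cell Ranger 3.0.1 on mm10 per the submitters' processing notes; how reads were filtered and cells called is not given in the sources. The 44 genes and all lists were chosen with earlier results of these data known. Barcodes under 500 genes or over 50% mitochondrial UMIs were removed, and the others were clustered with scanpy 1.11.5 without the 44 genes (2000 variable genes, 30 principal components, 15 neighbours, Leiden resolution 1) into 21 clusters, named by the list of at least 3 markers with the highest score of scaled level and detection; doublets were kept. Proximal tubule cluster 3 had the haemoglobin gene Hbb-bs among its top 10 genes, found in 11.1% of its cells and in 4.2 to 20.4% of the cells of the clusters.

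UMIs were summed per library and cell group and divided by non-mitochondrial UMIs (CPM); a UMI counts a molecule whatever the length of the gene. Ratios have exact conditional binomial intervals for 2 Poisson counts, and shares exact Clopper-Pearson intervals; a count of 0 is set against a floor of 3. Every member could be named; those in the text in full were fixed by name, and single cells were described after their values were seen. All 44 identifiers match GENCODE vM21. The last 500 bases of the transcripts of Mcm7, Cenpf, Cdc20, Mki67, Rfc2, Kif11 and Mcm5 share 36.6%, 25.5%, 22.6%, 21.9%, 21.7%, 16.2% and 12.6% of their 31-base words with other genes, and their counts are uncertain to that extent. Intervals and thinning were tested on simulated data. For the intervals these were Poisson counts, where 95.8% of the intervals held a true ratio of 1. UMIs gathered in a few cells, as for G2/M genes here, were not simulated, so the test cannot speak for them.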

Additional observations from a re-analysis of the deposited data

Results flagged for a closer look

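The count tables hold 5 reporter sequences that were added to the reference and are no part of the comparisons above. tdimer2 had 19 UMIs in kept vehicle cells and 233 UMIs in kept CA3 cells (ratio of CPM 14.4, 9.04 to 24.4), 93.1% of the latter in tubule-like cells. MbmCerulean had 636 and 931 UMIs (1.72, 1.56 to 1.91), and EYFP had 72 and 117 UMIs (1.91, 1.41 to 2.60). They are listed because a signal in features outside the main measurement was above the vehicle library. In the 9 cells with 10 or more G2/M genes, MbmCerulean had 7 UMIs in 2 cells, and EYFP and tdimer2 had 0. The genotype carries FUCCI2aR, and which of these sequences, if any, report it is not given in the sources used here. hrGFPIINLS and EGFP had 0 UMIs in both libraries.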

How the results depend on the processing

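No paired analysis was possible because each group is 1 library and no test was run. Of the values recomputed under other settings 334 kept their range and 58 moved. A share or ratio moved when it left the counting interval of the main value. A count of genes or cells moved when it changed by more than 1.5 times. The direction of 3 list ratios changed: the tubule G2/M ratio (0.945) was 1.03 without cells of 10 or more G2/M genes and 1.04 without cells of 10 or more S or G2/M genes, and the lymphocyte and phagocyte G2/M ratios (0.718 and 0.793) were 1.18 and 1.05, then 1.02 and 1.05, and 1.07 and 1.01 when the 3 cells richest in the list were left out of each library. The phagocyte G2/M ratio was 1.37 without cells of more proximal tubule than own marker UMIs, a setting added after the data were seen. The lymphocyte S ratio was 1.83 without cells of 10 or more G2/M genes. Without those cells, ratios beyond 1.5 times also changed direction: the B-like G2/M ratio went from 0.204 to 2.59, the lymphocyte G2/M ratio with the strict list from 0.487 to 1.15 and the proximal tubule one from 0.535 to 1.02. Without cells of 10 or more S or G2/M genes, the lymphocyte ratio with the strict list was below 1 again, at 0.755 (0.461 to 1.25). The proximal tubule one was then at 1.04 (0.732 to 1.49).

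One B-like cell of the 9 became phagocyte-like where the 44 genes were among the variable genes, at resolution 0.5 and where barcodes under 1000 genes or over 25% mitochondrial UMIs were removed; the lymphocyte G2/M ratio was then 0.890, 0.892 and 0.874, and the phagocyte one 0.479, 0.487 and 0.461. Strict lists gave G2/M ratios of 0.686 in the tubule, 3.62 in endothelial-like and 0.487 in lymphocyte-like cells. No setting of resolution 2, of Scrublet score, of the total or without proximal tubule cluster 3 moved a value by the rules above. The Scrublet setting says little about doublets, because how well the score finds them here was not tested.

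Shares depended most on depth and on the number of genes asked for. Shares of S only cells in vehicle and CA3 tubule-like cells were 12.1% and 15.7% without thinning and 3.63% and 3.04% with 2 genes; the vehicle one was 0.0625% at 1000 UMIs and with 4 genes, 0.188% with strict lists, 0.295% without the cell filter and 0.432% over 50 draws, and the CA3 one 0.858% at 3000 UMIs. In lymphocyte-like cells they were 24.1% and 39.8% without thinning and 13.8% and 22.1% with 2 genes; the vehicle one was 0% at 1000 UMIs, with 4 genes and with strict lists, and the CA3 one 13.4% at 3000 UMIs and 0.885% with strict lists. Shares with both lists were 0.563% and 0.466% in the tubule and 6.78% in vehicle endothelial-like cells without thinning; that of vehicle tubule-like cells was 0% at 1000 UMIs, with another seed and without the cell filter, and those of lymphocyte-like cells were 0% at 1000 UMIs, with 4 genes and with strict lists. Tubule-like CA3 cells with 10 or more G2/M genes numbered 2 without the cell filter. A count of 0 at this depth allows a share of up to 0.233% of CA3 tubule-like cells and of 5.08 to 8.33% of endothelial-like and phagocyte-like cells, in either library.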
